A study of Mus musculus with 12 samples.

Results

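Transcripts of the NMDA and AMPA receptor subunits were compared in the medial prefrontal cortex (mPFC) of 6 homecage (HC) mice and 6 mice exposed to chronic social defeat (CSD). The set was defined by name: Grin1, Grin2a, Grin2b, Grin2c, Grin2d and Grin3a for the NMDA receptor and Gria1, Gria2, Gria3 and Gria4 for the AMPA receptor. A gene was measured where a probe set of the array was annotated to it alone, and the brightest such probe set stood for the gene. Of the 10 genes 9 were measured, among 17656 measured genes in all. Grin1 was not analysed here, because the annotation used here pairs no probe set with it alone. Each of the 9 genes had 1 probe set, which was above system noise (a log2 value of 5.75) on 12 of 12 arrays.

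All 12 mice were wild-type C57BL/6 males. HC mice lived in groups. CSD mice lived beside a dominant CD-1 male behind a perforated partition, met it in a short bout each day, and were included in the stressed cohort according to their behavior in a social interaction and a light/dark test. The paper calls the mice adult, and the age in weeks is not given in the sources used here. Tissue was taken the day after the last defeat from brains perfused with saline, with the forceps minor, a white matter tract, as the border of the dissection. RNA of each mouse (200 ng) was put on 1 Affymetrix Mouse Gene 1.0 ST array, so the replicates were separate mice. Housing and defeat differed together between the groups and cannot be told apart.

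NMDA and AMPA receptors are the ion channels that carry most fast excitatory transmission between cortical neurons. AMPA receptors, built from GluA subunits, open when glutamate binds and depolarize the postsynaptic membrane. NMDA receptors pair the obligatory GluN1 subunit with GluN2 or GluN3 subunits, need a co-agonist (glycine or D-serine), and admit calcium once depolarization has removed magnesium from the pore. The GluN2 type sets the kinetics of the receptor, and GluA2, through an edited position in its pore, sets whether an AMPA receptor admits calcium. In the prefrontal cortex these receptors are known for their roles in synaptic plasticity and working memory.

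Promoter sequence (RefSeq, GRCm38.p6, the 250 bases before the start of the gene) was found for 4 of the 9 measured genes: Grin2c, Grin2d, Gria2 and Gria4. The promoters of Gria2, which had the largest difference upward among these 4, and of Grin2d, the gene of the set with a lower mean in CSD, are printed so that their composition can be read side by side. They are written 5′ to 3′ on the strand of the gene, and capitals mark each CG dinucleotide.
Gria2, chr3:80802836-80803085, minus strand: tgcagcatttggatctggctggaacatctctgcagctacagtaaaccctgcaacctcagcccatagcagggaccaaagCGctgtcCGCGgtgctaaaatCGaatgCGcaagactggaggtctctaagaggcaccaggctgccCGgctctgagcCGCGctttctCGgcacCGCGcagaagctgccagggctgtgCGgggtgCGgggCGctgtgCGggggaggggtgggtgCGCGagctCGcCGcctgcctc
Grin2d, chr7:45866682-45866931, minus strand: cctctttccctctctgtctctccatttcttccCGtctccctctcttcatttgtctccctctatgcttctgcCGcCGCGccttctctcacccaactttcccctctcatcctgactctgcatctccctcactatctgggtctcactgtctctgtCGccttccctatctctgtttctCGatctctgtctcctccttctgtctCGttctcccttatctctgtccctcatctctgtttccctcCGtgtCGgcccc
The Gria2 window held 19 CG dinucleotides at 64.8% G and C, and the Grin2d window held 9 at 54.4%. Over all 32851 promoter windows the medians were 6 CG dinucleotides and 52.4% G and C. Fewer CG dinucleotides than in Gria2 were found in 80.3% of windows, and fewer than in Grin2d in 59.7%. Grin2c had 15 and Gria4 had 16. A GC box (GGGCGG), an E-box (CACGTG), a cAMP response element (TGACGTCA) and a TATA box (TATAAA) were searched on both strands. None of these letters occurred in the windows of Gria2, Gria4 and Grin2d, and the Grin2c window held 3 GC boxes. Of all windows 32.7% held a GC box, 6.02% an E-box, 1.55% the cAMP response element and 12.4% a TATA box.

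Differences between CSD and HC in these subunits were small, and mostly upward. The mean was higher in CSD for 8 of the 9 genes, beside 42.9% of all measured genes. The share of all genes depended on single arrays and on scaling. It was 56.4% without HC replicate 2 and 35.2% with every array centred on its own median, with 1 subunit lower in each case. The median log2 difference (CSD minus HC) was 0.08 over the 9 genes and -0.01 over all measured genes. None of the 9 passed the call of an adjusted p under 0.05 with a fold change of at least 1.2, and neither did any other measured gene (0%). At an unadjusted p under 0.05, Grin2a, Gria2 and Gria3 were higher in CSD, beside 1.89% of all measured genes, and none of the 9 was lower, beside 6.52%. With every array centred on its own median, Grin2a and Gria3 were higher and Grin2d lower at that p. After quantile normalization Grin2a, Gria2 and Gria3 were higher and Grin2d lower.

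**Figure D1:**
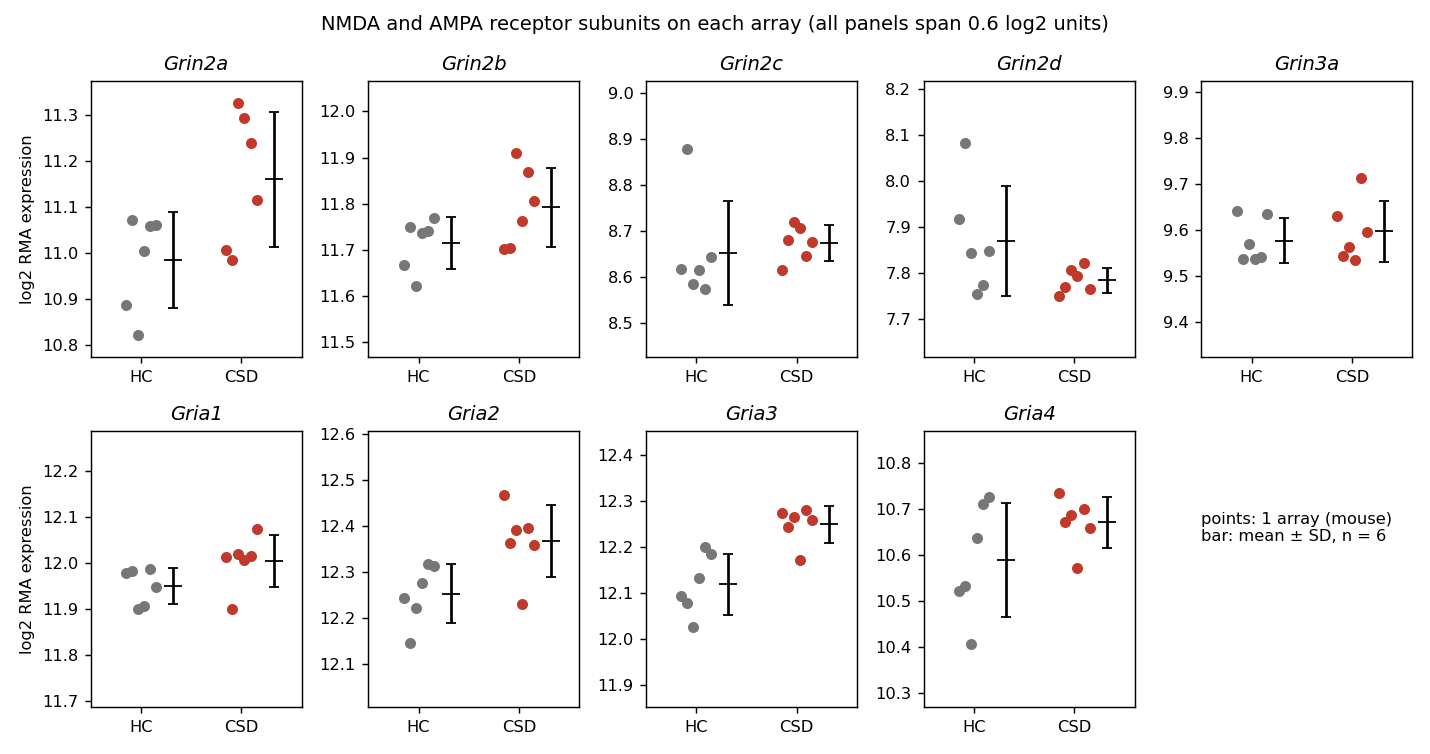
Log2 RMA expression (vertical axis) of the 9 measured subunits in HC and CSD mice, 1 point per array, with the mean and SD of 6 arrays as bars; each panel spans the same number of log2 units. The groups overlap in every panel, and 5 of the 6 CSD arrays lie above every HC array for Gria1, Gria2 and Gria3. How many of all measured genes show this was not counted.

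The AMPA receptor subunits all had a higher mean in CSD, with a median log2 difference of 0.10. Gria3 encodes GluA3, a subunit that pairs with GluA2 in cortical neurons. Its log2 level was 12.03 at the lowest, 12.11 at the median and 12.20 at the highest HC array, and 12.17, 12.26 and 12.28 on the CSD arrays. Of the CSD arrays 5 lay above every HC array, 4 HC arrays lay below every CSD array, and the groups met only at CSD replicate 8, the lowest of its group. The HC mean was 12.12 ± 0.066 and the CSD mean 12.25 ± 0.039 (SD, n = 6 each). The difference was 0.13 ± 0.04 (SE), or 9.42% on the linear scale (95% interval 3.50 to 15.7), with an adjusted p of 0.313 in limma and an exact permutation p of 0.00649. By its limma p Gria3 ranked 244 of the 17656 genes.

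Gria2 encodes GluA2, the subunit that keeps calcium out of most AMPA receptors of excitatory neurons. The HC arrays ran from 12.15 through a median of 12.26 to 12.32, and the CSD arrays from 12.23 through 12.38 to 12.47. Again 5 CSD arrays lay above every HC array, and CSD replicate 8, the lowest of its group, lay within the HC range. The means were 12.25 ± 0.064 and 12.37 ± 0.078 (SD, n = 6 each). The log2 difference was 0.11 ± 0.04 (SE), or 8.27% (95% interval 1.35 to 15.7), with an adjusted p of 0.486 in limma and an exact permutation p of 0.0260. The unadjusted limma p moved from 0.0222 to 0.0527 without CSD replicate 2, the highest array, and to 0.107 with the arrays centred on their medians.

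Gria1 encodes GluA1, the subunit best known for its insertion into synapses during potentiation. Its HC arrays spanned 11.90 to 11.99 (median 11.96) and its CSD arrays 11.90 to 12.07 (median 12.01). Here 5 CSD arrays lay above every HC array. The remaining one, CSD replicate 6, was all but level with the lowest HC array (11.8997 beside 11.9 on HC replicate 3). The difference of 0.05 ± 0.03 (SE) had a 95% interval of -0.02 to 0.13, an adjusted p of 0.757 and an exact permutation p of 0.0801. Without CSD replicate 6 it was 0.07 with an unadjusted limma p of 0.0411.
Gria4 encodes GluA4, found in the cortex mainly in parvalbumin interneurons. It ran from 10.41 to 10.73 in HC (median 10.59) and from 10.57 to 10.73 in CSD (median 10.68), so that the groups overlapped over nearly the whole CSD range. The difference was 0.08 ± 0.05 (SE), with a 95% interval of -0.04 to 0.20 and an adjusted p of 0.764 in limma. Without HC replicate 3, the lowest array, it was 0.04.

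Among the NMDA receptor subunits the 2 major cortical GluN2 genes had the largest upward differences. Grin2a encodes GluN2A, which comes to dominate in the mature cortex and gives receptors with fast kinetics. Its HC arrays ran from 10.82 through a median of 11.03 to 11.07, and its CSD arrays from 10.98 through 11.18 to 11.33. Of the CSD arrays 4 (replicates 7, 8, 9 and 10) lay above every HC array, while replicates 2 and 6 lay within the HC range. The means were 10.99 ± 0.105 and 11.16 ± 0.147 (SD, n = 6 each). The log2 difference was 0.18 ± 0.07 (SE), or 13.0% (95% interval 1.71 to 25.4), with an adjusted p of 0.518 in limma and an exact permutation p of 0.0498. This was the largest difference of the 9 genes, and also the one with the largest SE. The unadjusted limma p, 0.0262 over 12 arrays, lay between 0.0552 and 0.0631 without HC replicate 1, HC replicate 3 or CSD replicate 7, 8 or 9.

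Grin2b encodes GluN2B, the slower subunit that prevails early in life and binds the kinase CaMKII. Its arrays ran from 11.62 to 11.77 in HC (median 11.74) and from 11.70 to 11.91 in CSD (median 11.78), and 3 CSD arrays lay above every HC array. The difference of 0.08 ± 0.04 (SE) had a 95% interval of -0.02 to 0.17, an adjusted p of 0.705 in limma and an exact permutation p of 0.102.

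Grin2c, Grin2d and Grin3a were the dimmest probe sets of the set, and over all 12 arrays, as deposited, none of their differences reached an unadjusted p under 0.05. Grin2d encodes GluN2D, which in the cortex is found mainly in interneurons. Its HC arrays ran from 7.75 through 7.85 to 8.08 and its CSD arrays from 7.75 through 7.78 to 7.82. All 6 CSD arrays lay below the HC mean. The SD was 0.120 over the HC arrays, 0.065 without HC replicate 2, and 0.027 over the CSD arrays. The difference was -0.09 ± 0.05 (SE), with a 95% interval of -0.20 to 0.02, an adjusted p of 0.721 in limma and an exact permutation p of 0.0887. Without HC replicate 2, the highest array, it was -0.04. The unadjusted limma p was 0.0230 with centred arrays and 0.0233 after quantile normalization, beside 0.115 as deposited.
Grin2c encodes GluN2C, which in the forebrain is found largely in astrocytes. It lay between 8.57 and 8.88 in HC (median 8.62) and between 8.61 and 8.72 in CSD (median 8.68). The difference was 0.02 ± 0.05 (SE; adjusted p 0.945 in limma). HC replicate 2 alone held the HC maximum, and without it the difference was 0.07 with an unadjusted limma p of 0.0200.
Grin3a encodes GluN3A, a glycine-binding subunit that lowers calcium entry and is most abundant in juvenile brain. It ran from 9.54 to 9.64 in HC (median 9.56) and from 9.54 to 9.71 in CSD (median 9.58). Its difference was 0.02 ± 0.04 (SE), with a 95% interval of -0.06 to 0.10 and an adjusted p of 0.934 in limma.

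**Figure D2:**
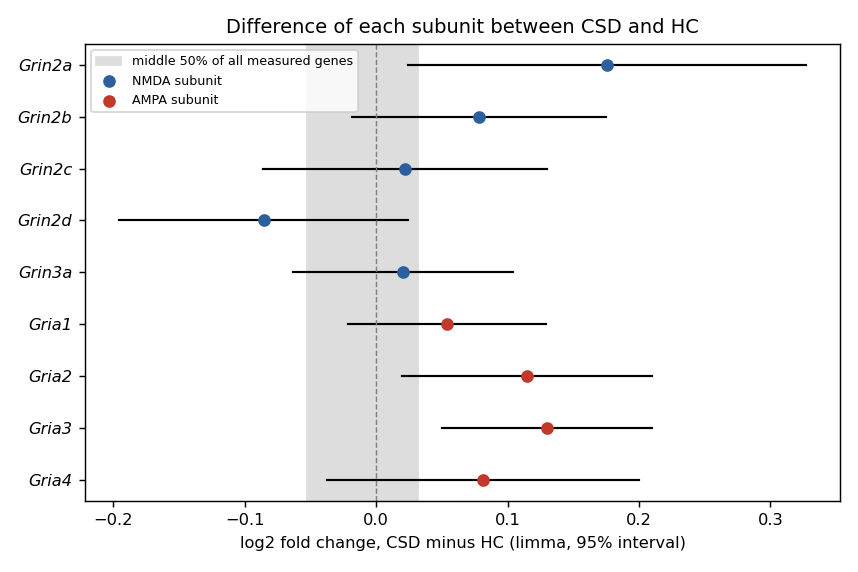
Log2 fold change (CSD minus HC, horizontal axis) of each subunit with its 95% interval from limma (6 arrays per group), NMDA subunits in blue and AMPA subunits in red; the gray band holds the middle 50% of all measured genes. The intervals of Grin2a, Gria2 and Gria3 lie above 0, and Grin2d has the only negative estimate.

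For none of the 9 genes did every CSD array lie above every HC array, which held for 14 of all measured genes (0.0793%). The share of all measured genes with 5 of 6 CSD arrays above every HC array was not counted, and the 0.0793% does not stand for it. Counted by mouse, the arrays differed within each group. CSD replicate 9 lay above the median of the 12 arrays for 9 of 9 genes, replicate 7 for 8 and replicate 10 for 7. CSD replicates 6 and 8 did so for 4 and replicate 2 for 5. Among HC mice the count ran from 0 (replicate 4) to 5 (replicate 6). The groups thus overlapped in this count, with the 3 highest mice all from CSD and the 3 lowest (HC replicates 1, 3 and 4) all from HC. The values counted were not centred. Array medians were 7.63 on CSD replicate 9 and 7.60 on CSD replicate 7, the highest after HC replicate 2 (7.69, count 4). They were 7.53 on HC replicates 1, 3 and 4, the lowest after HC replicate 6 (count 5). CSD replicate 10, with a count of 7, had 7.54. The part of the array level in this count was not tested, and the count was not made over all measured genes.

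The subunits were also divided by level. The 6 genes with a mean log2 level of at least 10 (Grin2a, Grin2b and the 4 Gria genes) were all higher in CSD, with a median difference of 0.10, and of the 3 genes below that level 2 were higher, with a median of 0.02. Of the 3393 measured genes at such levels 36.2% were higher in CSD, their median difference was -0.02, and 2.36% were higher at an unadjusted p under 0.05. This split by level was chosen after the values were seen.

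Exchange of one subunit for another was examined as the log2 difference of 2 probe sets on the same array, which cancels a shift of the whole array. Because 2 probe sets differ in brightness, only its change between groups can be read. Grin2a minus Grin2b was -0.73 ± 0.051 in HC and -0.63 ± 0.093 in CSD (SD, n = 6 each; exact permutation test, two-sided, p = 0.0433). The change of 0.10 ± 0.04 (SE) toward Grin2a had a p of 0.0866 after the Benjamini-Hochberg adjustment over the 2 ratios (exact permutation test). CSD replicates 7, 8 and 9 lay above every HC array, and replicate 8 was the highest at -0.47. Leaving out 1 array gave changes between 0.07 and 0.12 and exact permutation p-values between 0.0173 and 0.0909, over 0.05 for 7 of the 12 arrays (HC replicates 1, 3, 4 and 6 and CSD replicates 7, 8 and 9).
Gria1 minus Gria2 was -0.30 ± 0.078 in HC and -0.36 ± 0.094 in CSD (SD, n = 6 each). For this ratio 4 CSD arrays (replicates 2, 6, 7 and 9) lay below every HC array, replicate 7 only just (-0.3722 beside -0.3713 on HC replicate 4). The change of its mean was -0.06 ± 0.05 (SE; exact permutation test, two-sided, p = 0.240, and 0.240 after adjustment). Leaving out 1 array gave changes from -0.09 (without CSD replicate 8) to -0.03 (without HC replicate 2).

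Of 3 pairs of subunits, each tested against no correlation, 2 varied together between mice, and differences between the pairs were not tested. Grin2a and Grin2b correlated over the 12 arrays with r = 0.896 (permutation test, p = 0.00016, adjusted over 3 pairs 0.0003) and rho = 0.923 (permutation p = 6e-05, adjusted 9e-05). Within HC r was 0.980 and within CSD 0.802, and without HC replicate 3 and CSD replicate 7, the arrays farthest from the Grin2a median, it was 0.787. Gria2 and Gria3 gave r = 0.886 (permutation p = 0.0002, adjusted 0.0003) and rho = 0.958 (permutation p = 1e-05, the smallest that 100000 resamples can give, adjusted 3e-05). Their r was 0.787 within HC, 0.917 within CSD and 0.908 without HC replicate 2 and CSD replicate 2.
Gria1 and Gria2 gave r = 0.341 (permutation p = 0.278, adjusted 0.278) and rho = 0.476 (permutation p = 0.123, adjusted 0.123). Within the groups their r was near 0, at -0.08 in HC and 0.05 in CSD, and it was 0.467 without CSD replicates 6 and 10. Values of the same array share its normalization and its RNA.

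**Figure D3:**
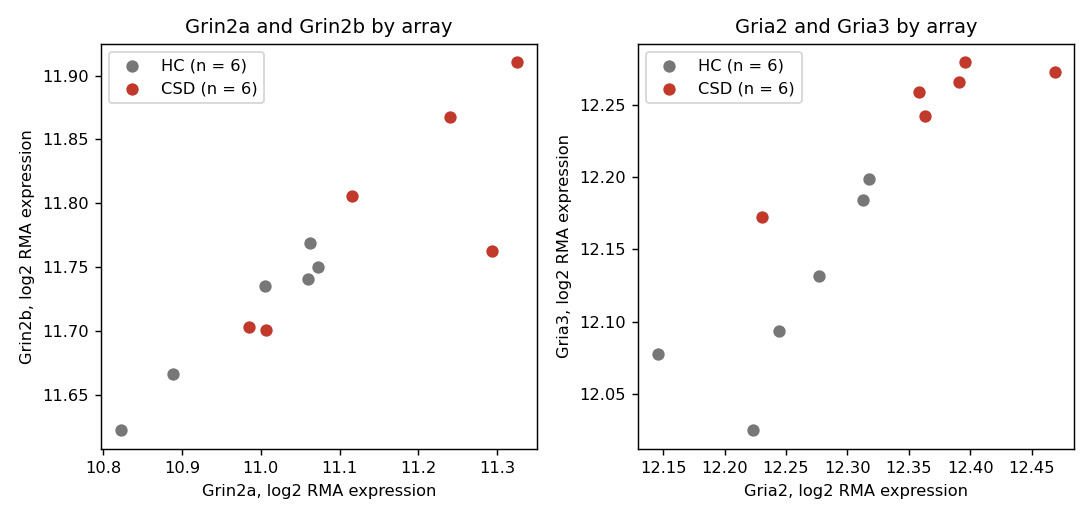
Log2 RMA expression of Grin2a against Grin2b (left) and Gria2 against Gria3 (right), 1 point per array, HC in gray and CSD in red. In both panels the arrays rise together within each group as well as across them, with r of 0.896 and 0.886 over the 12 arrays.

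Most of the subunit genes are long, a feature that was not part of their choice. By the RefSeq table the loci of 7 of the 9 genes spanned at least 100 kb, as did 12.6% of measured genes with a length. Those 7 ran from 123 kb for Gria2 to 460 kb for Grin2b, and Grin2c (18.1 kb) and Grin2d (39.3 kb) were shorter. Length was looked at after the values were seen, over the 17583 measured genes (99.6%) that have one. Of the 518 genes of 300 kb or more, 259 were higher in CSD, and at an unadjusted p under 0.05 3.67% were higher and 4.63% lower. Of the 1694 genes of 100 to 300 kb, the class of Grin3a, Gria2 and Gria3, 41.4% were higher, and at that p 2.77% were higher and 7.44% lower. In the 3 shorter classes 1.58% to 1.86% were higher and 5.25% to 7.39% lower at that p. The median difference was 0.00 in the longest class and between -0.02 and 0.00 in the others. Within its own length class Grin2a stood above 99.0% of genes, Gria3 above 97.9% and Gria2 above 96.8%. The level of the longest class itself moved between arrays, from a median deviation of -0.06 on HC replicate 3 to 0.07 on HC replicate 6. It was 0.05 on CSD replicate 7 and 0.04 on CSD replicate 9. On the other CSD arrays it lay below 0, from -0.03 (replicate 6) to -0.01 (replicate 10). The part of this class level in the differences of single subunits was not tested.

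**Figure D4:**
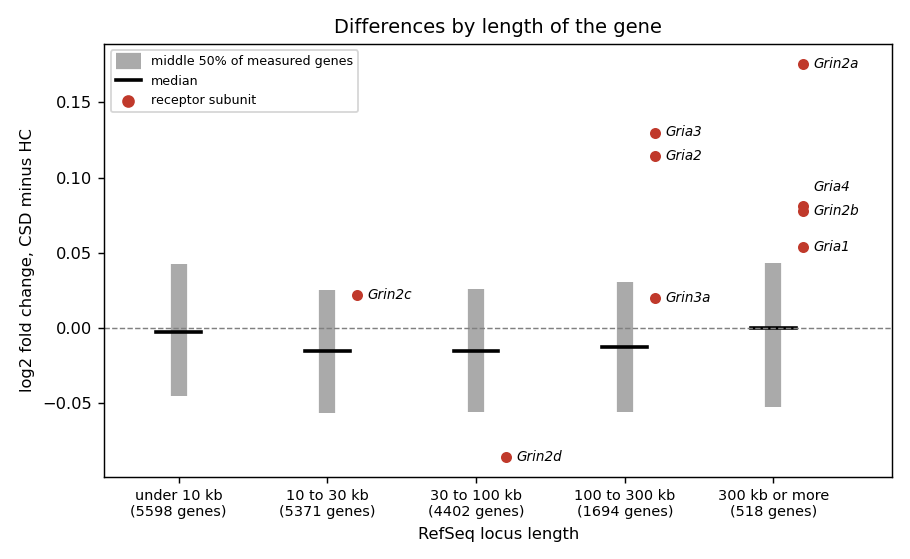
Log2 fold change (CSD minus HC, vertical axis) by RefSeq locus length class; gray bars hold the middle 50% of measured genes, black lines their medians, and red points the 9 subunits. The class medians lie within 0.02 of 0, and 6 of the 7 subunit genes of 100 kb or more lie above the gray bar of their class.

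Other genes of glutamate receptor signaling did not share one direction. None of them passed the adjusted p in limma. Of the kainate and delta receptor subunits, which form the other ionotropic glutamate receptors, 6 of 7 listed were measured, 2 were higher and 4 lower, and the median difference was -0.02. Grik2, which encodes the kainate subunit GluK2, differed by 0.13 ± 0.05 (SE; adjusted p 0.506 in limma, exact permutation p 0.0173) and was higher at an unadjusted p under 0.05. Grik3 differed by -0.07 (adjusted p 0.751). The auxiliary subunits, which travel with the receptors and tune their gating, had all 18 genes measured, of which 6 were higher and 12 lower (median -0.03). Cacng7, a gene of the TARP family, was lower at an unadjusted p under 0.05 (-0.12 ± 0.05, SE; adjusted p 0.503), and Cacng4 of the same family differed by -0.07 (adjusted p 0.627).

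Postsynaptic scaffolds and trafficking proteins hold the receptors at the synapse. Of these genes 28 of 30 were measured, 18 were higher and 10 lower, and the median was 0.01; with centred arrays 14 were higher. The 2 with the smallest p were Dlg1 (SAP97, which binds GluA1) at 0.10 ± 0.04 (SE; adjusted p 0.461 in limma, exact permutation p 0.00649) and Dlg2 (PSD-93, which binds GluN2 subunits) at 0.08 ± 0.03 (SE; adjusted p 0.467, exact permutation p 0.00433). For each of them 5 of 6 CSD arrays lay above every HC array, a pattern whose share over all measured genes was not counted. Among the kinases, phosphatases and editing enzymes that act on the receptors, 17 of 18 were measured, 10 were higher and 7 lower (8 higher with centred arrays), and none passed an unadjusted p under 0.05. Camk2g, a CaMKII subunit, differed by -0.10 (adjusted p 0.662 in limma), and Akap5, an anchor for kinases at the receptor, by 0.06 (adjusted p 0.764).

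Genes of glutamate uptake and co-agonist supply were measured for 12 of 13, and 4 were higher and 8 lower (median -0.02). Slc6a9 encodes GlyT1, the carrier that removes glycine, a co-agonist of the NMDA receptor, from the extracellular space. Its log2 level was 10.39 ± 0.15 in HC and 10.08 ± 0.10 in CSD (SD, n = 6 each), and 4 CSD arrays lay below every HC array. The difference of -0.31 ± 0.07 (SE) had an adjusted p of 0.197 in limma and an exact permutation p of 0.00649. Slc7a10, a carrier of glycine and D-serine, differed by -0.10 (adjusted p 0.734). Slc17a7, the vesicular glutamate transporter of cortical excitatory neurons, was 12.73 ± 0.071 in HC and 12.72 ± 0.068 in CSD.

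**Figure D5:**
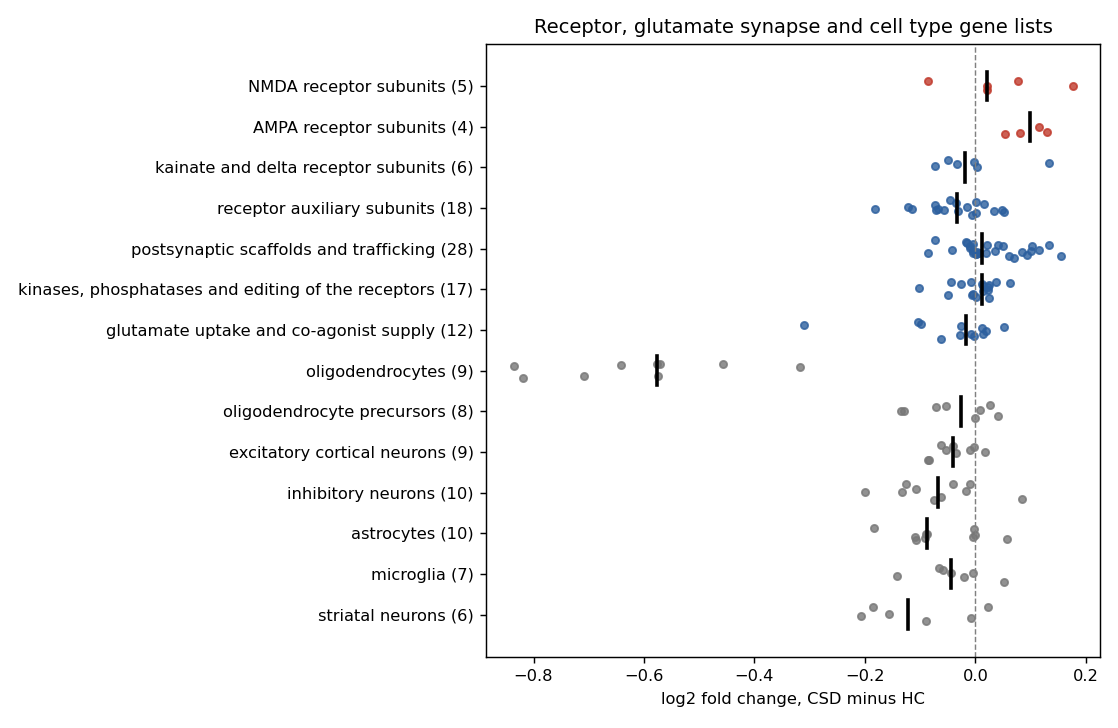
Log2 fold change (CSD minus HC, horizontal axis) of each measured gene of the receptor subunits (red), other glutamate signaling lists (blue) and cell type markers (gray), with the median as a black bar and the number of measured genes in parentheses. The AMPA subunits lie to the right of 0, most other medians lie within 0.1 of it, and the oligodendrocyte markers lie to the left with a median of -0.58.

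Markers of the cell types in the dissected tissue were read beside the subunits. Of the oligodendrocyte markers 9 of 10 were measured, and all 9 were lower in CSD at an unadjusted p under 0.05, beside 6.52% of all measured genes. Their median was -0.58, with Mog, a myelin surface protein, at -0.84 (adjusted p 0.0986 in limma). Their summed log2 level was 13.41 to 13.95 in HC and 12.89 to 13.40 in CSD. In whole tissue, fewer cells of a type and less RNA per cell cannot be told apart, and normalized values are relative to the whole RNA of the sample. The part of these lower markers in the subunit values, and in that of Slc6a9, was not tested.

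The neuronal markers mostly had a lower mean in CSD, beside 42.9% of all measured genes with a higher one. That share was 56.4% without HC replicate 2, and the markers were not counted without that array. Of the markers of excitatory cortical neurons 9 of 10 were measured, 1 was higher and 8 lower (median -0.04), none at an unadjusted p under 0.05, and Rorb, a layer marker, had the smallest p at -0.09. Their summed log2 level was 14.10 to 14.29 in HC and 14.12 to 14.23 in CSD. Of the 10 genes listed as inhibitory neuron markers 1 was higher and 9 lower (median -0.07), none at that p, with Dlx1 at -0.20. The sum of the listed genes, which rests mostly on the brightest of them, was 14.19 to 14.29 in HC and 14.13 to 14.24 in CSD. Expression of the listed genes in other cells was not examined. Of 10 astrocyte markers 9 were lower (median -0.09; Aqp4 -0.18), of 7 microglial markers 6 (median -0.04; P2ry12 -0.14), of 8 markers of oligodendrocyte precursors 5 (median -0.03; Lhfpl3 -0.13), and of 6 markers of striatal neurons 5 (median -0.12; Drd1 -0.16). At an unadjusted p under 0.05, 1 astrocyte, 1 microglial, 2 precursor and 1 striatal marker were lower, beside 6.52% of all measured genes. The mean of every marker measured lay above system noise, the lowest being a microglial one at 6.47. The listed genes without a value were not analysed here.

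The arrays resembled each other, with median correlations within a group from 0.991 (HC replicate 6) and 0.992 (HC replicate 2) to 0.996. The array median was highest on HC replicate 2 (7.69) and lowest on HC replicate 6. Without these 2 HC arrays the median difference of the 9 subunits was 0.10, Grin2a, Grin2c, Gria2 and Gria3 were higher at an unadjusted p under 0.05, and 59.0% of all measured genes had a higher mean in CSD. Between 2 and 4 of the 9 subunits reached that p when any 1 array was left out, and the share of all measured genes that did so in either direction ran from 6.42% to 11.3%. The median difference then ran from 0.04 (without HC replicate 3) to 0.09 (without HC replicate 6), beside 0.08 over all arrays.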

How the data were processed

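RNA from the mPFC of 6 HC and 6 CSD mice was hybridized to 12 arrays. Values are on a log2 scale, as deposited by the authors, who obtained them by RMA (background subtraction, normalization between arrays and summary of the probes) with Affymetrix Expression Console. No program version is stated in these sources. All 12 value columns were mapped to mice (0 unmapped), over 35556 probe sets. Arrays carry no read depth, so their number limits the precision. The methods place system noise where a LOWESS fit of CV (the SD over the mean) against mean expression becomes linear, and give no value. That rule was not applied here, because an earlier look at these data had found no usable point, and the 20th percentile of all values (5.75) was taken. This removed 5718 probe sets that never exceeded it and retained 29838, in which lower values (4.67%) were set to 5.75. CSD was tested against HC with limma 3.58.1 in R 4.3.3 (lmFit, eBayes, two-sided, no covariate), and p-values were adjusted by Benjamini-Hochberg over the retained probe sets. A call needed an adjusted p under 0.05 together with a fold of 1.2 or more. Single genes and ratios were also tested by exact permutation of the group labels (924 splits, two-sided, smallest p 0.00216) in Python 3.11.15 with scipy 1.17.1. Figures were drawn with matplotlib 3.10.9. The fit was tested on simulated data first.

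In the 2016 annotation of the platform, 21789 probe sets name a single gene, 1621 name several and 12146 name none. All 9 measured subunits were found by Entrez identifier in the RefSeq table. The subunits and gene lists were chosen with earlier results of these data known. Named genes are all subunits, the 2 genes of each pathway list and the 1 of each marker list with the smallest p, and any gene called. Slc17a7 was named beyond this rule. A summed level is the log2 of the summed linear values of a list. A planned ratio of Grin1 to Gria2 was not computed. Alternatives were the methods' t-test, no floor, no filter, higher noise, probe sets with 1 gene, centred arrays, quantile normalization, array weights, robust estimation with a mean-variance trend, the replicate block, the mean over probe sets and each array left out. Leaving out HC replicates 2 and 6 together, the split at a log2 level of 10 and the length classes were added after seeing the data.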

Additional observations from a re-analysis of the deposited data

Results flagged for a closer look

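Single arrays that stood apart from the other 5 of their group were looked for in 28 items, among them the 9 subunits and other genes named here. Dixon's 95% limit for 6 values was set on the gap to the next array as a share of the range. This limit was exceeded in 6 of 56 groups of 6 arrays. Chance gives about 1 in 20 for independent values, but values of the same array share its normalization and its RNA. Among the subunits, Grin2c was highest on HC replicate 2 at a log2 level of 8.88, with the next array at 8.64 and a gap of 0.772 of the range. Gria3 was lowest on CSD replicate 8 at 12.17, with the next at 12.24 and a gap of 0.654. Among the other genes, Grik2 was lowest on HC replicate 3 at 10.64 (next 10.84, gap 0.714) and, in CSD, on replicate 8 at 10.84 (next 10.99, gap 0.772). Lhfpl3 was highest on CSD replicate 2 at 9.50 (next 9.40, gap 0.662). Rorb was lowest on CSD replicate 8 at 9.002 (next 9.20, gap 0.658).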

How the results depend on the processing

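Over the 9 subunits and 24 alternatives, 211 of 216 differences kept their direction and side of the adjusted threshold and 5 reversed. Part of these 211 outcomes was fixed beforehand, because each subunit had 1 probe set, above noise on 12 of 12 arrays. The methods' t-test, the mean-variance trend and changes of floor, filter or noise therefore could not alter its difference. Neither could the fit on probe sets with 1 gene or the mean over probe sets, and only the p could move. No subunit was called under any of the 24 alternatives, and the adjusted p ranged from 0.165 to 1 for Gria3, 0.300 to 1 for Gria2 and 0.328 to 1 for Grin2a. Over the whole table limma called 0 probe sets (2516 at an unadjusted p under 0.05), the methods' t-test also 0 (2214), quantile normalization 1, the mean-variance trend with robust estimation 14, and a fit on probe sets with 1 gene, where fewer were tested, 21. The replicate block rests on the 2 numbers that the groups share (4 arrays). Their same-numbered samples did not deviate together (correlations -0.210 and -0.0355), but 2 numbers are too few to tell whether the numbers pair mice. Under the replicate block 5 subunits were lower, 0 reached an unadjusted p under 0.05, their median was -0.0094, and Grin2a (-0.0714), Grin2b (-0.0575), Grin2c (-0.11) and Gria1 (-0.0094) reversed, while the median of all genes was -0.08. Leaving out 1 array gave 1 to 2 lower subunits, the second being Grin3a without CSD replicate 9 (its difference ran from -0.0030 to 0.0329), and 2 to 4 at an unadjusted p under 0.05, a median of 0.0448 to 0.0890, and a change of Grin2a minus Grin2b of 0.0656 to 0.115. With array weights Gria4 also reached an unadjusted limma p under 0.05 (0.0495). The ratio of Grin1 to Gria2 was not run.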
